A study of Homo sapiens with 8 samples.

Results

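The 40 transcripts described here encode proteins of the centromere, the kinetochore and the spindle checkpoint. The rule lists them by name and uses no measured value, although the list was drawn up with earlier results of these data known. They come from the CENP proteins, the KMN network, the SKA complex, the factors that load CENPA and the spindle checkpoint genes. All 40 were found among the 60230 genes of the count table, and all 40 passed the filter on low counts, which kept 13404 genes. The cells were HepG2, an established human hepatocellular carcinoma line, here carrying a CYP3A4 transgene that every sample shares, so that the enzyme, a major hepatic cytochrome P450, was overexpressed in controls and treated cells alike. The 4 groups held 2 samples each, 8 in all. Control cells received 0.2% DMSO, and the other groups received compound 4, 5 or 6, antioxidants used in plastics, each at its own IC50 concentration for 24 h. Compounds 4 and 6 are both methylene-bridged bisphenols, with tert-butyl groups on the rings of compound 4 and cyclohexyl groups on those of compound 6, whereas compound 5 is an ethylidene-bridged bisphenol with tert-butyl groups. Because each was given at its own concentration, differences between the compounds are differences between the treatments as given.

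The centromere is the stretch of a chromosome marked by the histone variant CENPA, and the kinetochore is the protein assembly built on it when a cell enters mitosis. An inner layer, the constitutive centromere network, stays on the chromatin through the cell cycle. The outer KMN network, made of the KNL1, MIS12 and NDC80 complexes, binds the spindle microtubules with the help of the SKA complex. Kinetochores without microtubules recruit the checkpoint kinases and the MAD and BUB proteins, which hold the cell before anaphase. Many of these genes are transcribed mainly from G2 into mitosis, when cells prepare to divide.

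The samples held between 9472261 and 13308975 counts on genes. After TMM scaling to effective library size, the smallest amount taken as detected, 3 counts, stood for 0.234 to 0.313 CPM, counts per scaled library. All 10 HepG2 markers were detected in every sample, and their summed level was 40000 and 41900 CPM in DMSO and between 31500 and 38400 CPM in the treated samples. Of these 10, 3 were called lower with compound 4, 3 with compound 5 and 2 with compound 6, APOA1 and TF each time, and TTR was called higher with compound 4. Of the 7 fibroblast markers, between 4 and 6 were at 0 in each sample, and the list summed to 1.64 and 2.66 CPM in DMSO and to between 2.67 and 8.72 CPM in treated samples. Its single tested member, PDGFRB, was higher with compound 4 by 1.80 on the log2 scale (SE 0.35, edgeR adjusted p = 0.00864). Of the 5 immune markers, PTPRC and CD3E were at 0 in all samples, and the list summed to 2410 and 3030 CPM in DMSO and to between 1890 and 2700 CPM in treated samples. LYZ alone carried nearly all of this sum, with 2990 and 2380 CPM in DMSO, whereas CD68 lay between 27.2 and 57.6 CPM over all samples and CD14 was at 0.0985 and 0.164 CPM in DMSO, less than 3 counts. CD68 and CD14 were called higher with compound 4, CD14 was called higher with compound 6, and LYZ was called lower with compound 5. The 4 endothelial markers summed to between 0.864 and 2.06 CPM. The part of these differences in the results on the kinetochore was not tested.

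Against DMSO, 29 of the 40 were called lower with compound 4, where 5.42% of all 13404 tested genes were called lower. With compound 5, 22 were called lower, against 14.2% of all genes, and with compound 6, 9 were called lower, against 1.6% of all genes. No member was called higher with any compound, against 6.5%, 13.9% and 2.8% of all genes. A gene was called where the edgeR quasi-likelihood test gave a Benjamini-Hochberg adjusted p under 0.05 over all tested genes. At an unadjusted p under 0.05, 33, 26 and 29 members differed from DMSO with compounds 4, 5 and 6, against 27.0%, 41.5% and 20% of all genes in either direction. In bulk RNA, fewer dividing cells and less of a transcript in each cell cannot be told apart. By flow cytometry at the same IC50 concentrations and time, the authors reported a larger G2/M share with each compound than in DMSO. How that share bears on the levels given here was not tested.

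For compounds 4, 5 and 6 the 40 members had median log2 fold changes of -0.68, -0.49 and -0.52. Over all tested genes the medians were 0.00, -0.03 and 0.00. Every member had a negative fold change with compounds 4 and 6, and 38 of 40 did with compound 5. Some small values turned positive in other settings. After a correction for transcript length and GC content, MIS12 was at 0.04 with compound 4, and CENPQ and PMF1 were at 0.01 with compound 5. Leaving out 1 library moved PMF1 and MIS12 to at most 0.07 and 0.05 with compound 4, MIS12 to at most 0.14 with compound 6, and CENPE, CENPO and HJURP to at most 0.08, 0.04 and 0.02 with compound 5. MIS12 and CENPT were the 2 positive members with compound 5, at 0.23 (SE 0.16) and 0.15 (SE 0.11), neither of them called. CENPI had the most negative value with each of the 3 compounds, and MIS12 the value furthest to the positive side. Both treated samples lay below both DMSO samples for 36 members with compound 4, 33 with compound 5 and 36 with compound 6. The same held for 27.1%, 37.3% and 26.6% of all tested genes.

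**Figure D1:**
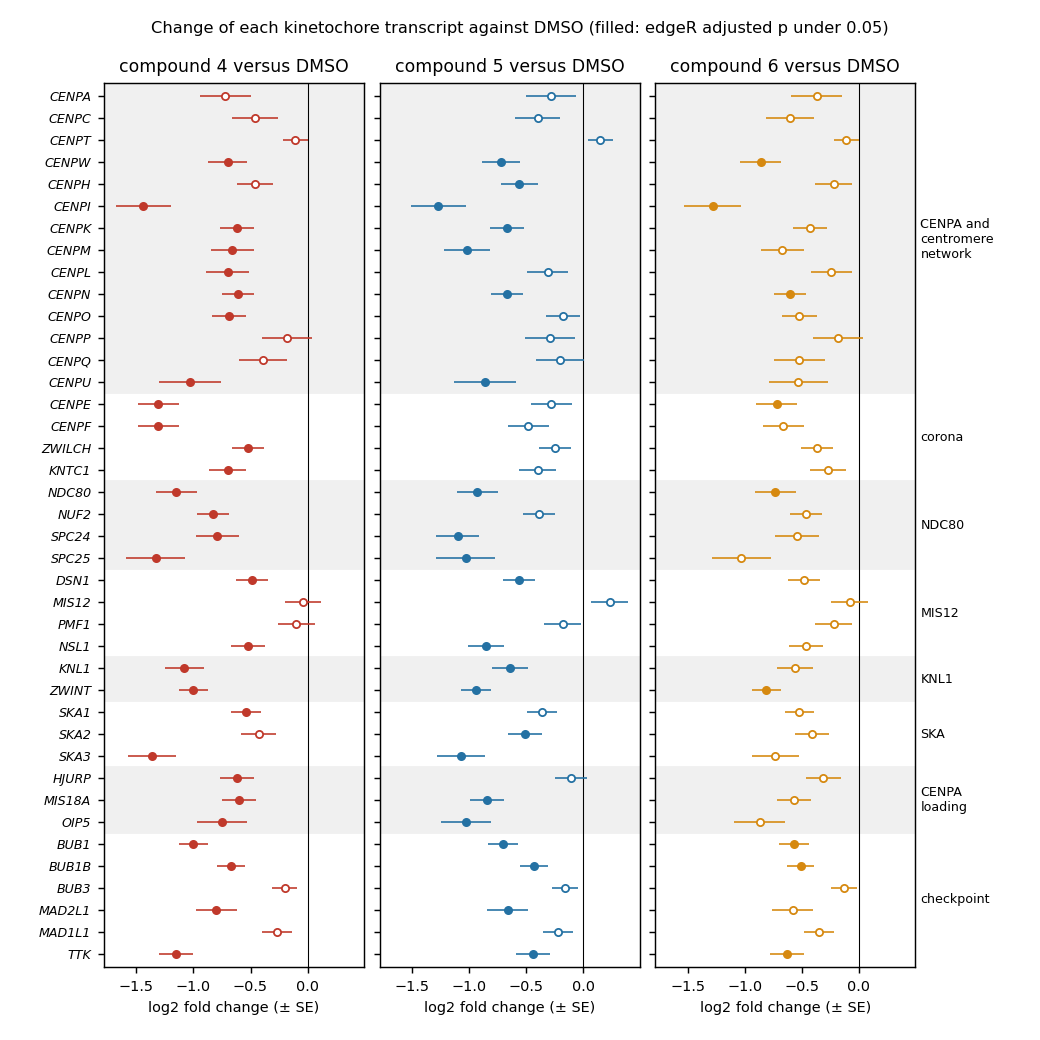
Log2 fold change of each of the 40 transcripts against DMSO (x axis, with the standard error as a bar), for compounds 4, 5 and 6 in 3 panels, with genes in rows and shaded bands for alternate sub-complexes. Filled points passed an edgeR adjusted p of 0.05: 29, 22 and 9 of the 40, all of them to the left of 0.

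The calls differed in number more than the medians did. The compound 6 samples differed by a shift that nearly all members shared: 38 of the 40 were lower in replicate 2 than in replicate 1, with a median difference of -0.28 on the log2 scale. The same difference had a median of 0.09 in DMSO, 0.07 with compound 4 and 0.06 with compound 5, where single members differed in both directions, from -0.64 for CENPI to 0.70 for CENPA with compound 4. Relative to the DMSO mean, the members had a median of -0.39 in compound 6 replicate 1 and -0.69 in replicate 2. The corresponding medians were -0.68 and -0.56 with compound 4 and -0.49 and -0.55 with compound 5.

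**Figure D2:**
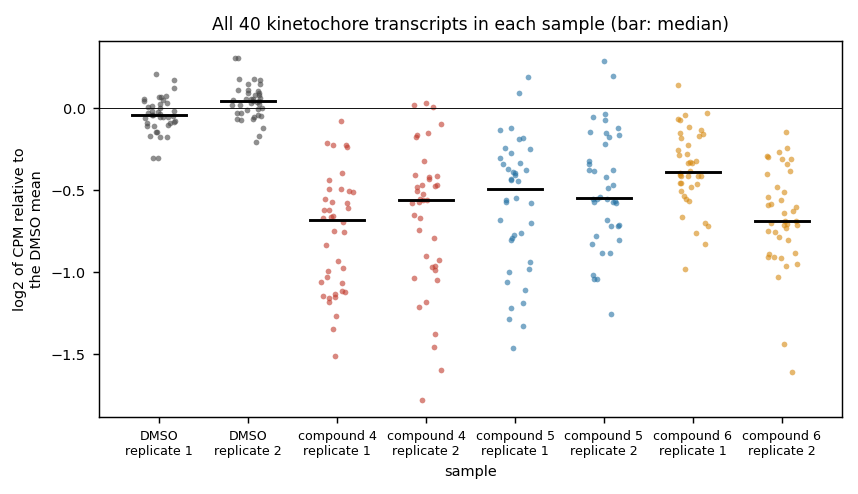
Level of the 40 transcripts in each of the 8 samples, as the log2 of CPM relative to the mean of the DMSO samples (y axis), with a point for each gene and a bar at the median. The medians of the 6 treated samples lie between -0.39 and -0.69, and those of the DMSO samples at -0.04 and 0.04.

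How many members were called depended on single libraries, and so did the calls among all tested genes, whose ranges are given below. For compound 4 the count fell from 29 to 8 without DMSO replicate 2, to 14 without DMSO replicate 1 and to 16 without compound 4 replicate 1. For compound 5 it fell from 22 to 10 without DMSO replicate 2 or without compound 5 replicate 1, to 13 without compound 5 replicate 2 and to 14 without DMSO replicate 1. For compound 6 no member was called without DMSO replicate 2 or without compound 6 replicate 2, 2 were called without DMSO replicate 1, and 4 without either compound 5 replicate, whose libraries enter the shared estimate of spread. Without compound 6 replicate 1 the count rose to 15, and without compound 4 replicate 1 or 2 to 19 or 17. Across these fits the median stayed between -0.72 and -0.57 for compound 4, between -0.55 and -0.40 for compound 5 and between -0.67 and -0.39 for compound 6.

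Blocking on replicate number gave counts of 26, 21 and 7, where 693, 1857 and 180 of all 13404 tested genes were called lower. CENPM, NSL1 and ZWILCH then lost their call with compound 4, at edgeR adjusted p-values of 0.0571, 0.063 and 0.0523. With compound 5, CENPU (0.0503) and TTK (0.0528) lost theirs and NUF2 gained one (0.0461), all by the edgeR adjusted p. With compound 6, CENPE (0.0638), NDC80 (0.0639) and TTK (0.0547) lost theirs and OIP5 gained one (0.0424), by the same measure.

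DESeq2 called 24, 21 and 12 members lower, beside 656, 1341 and 296 of all 13404 tested genes. It lost CENPL, CENPM, MIS18A, NSL1 and SKA1 with compound 4, at DESeq2 adjusted p-values of 0.144, 0.0523, 0.0897, 0.0576 and 0.0805. It also lost CENPH (0.0662) and TTK (0.139) with compound 5 and TTK (0.0535) with compound 6. It gained CENPF with compound 5, and CENPF, MAD2L1, OIP5 and SPC25 with compound 6. The correction for length and GC content gave 29, 21 and 19 members, where 1031, 1976 and 522 of 13325 genes were called lower. With it, NSL1 and ZWILCH lost the call with compound 4, and CENPH, CENPU and TTK with compound 5. CENPA (edgeR adjusted p = 0.0303) and MAD1L1 (edgeR adjusted p = 0.0161) gained one with compound 4, and CENPF and KNTC1 gained one with compound 5. The 10 gained with compound 6 included MAD1L1 (edgeR adjusted p = 0.0324).

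**Figure D3:**
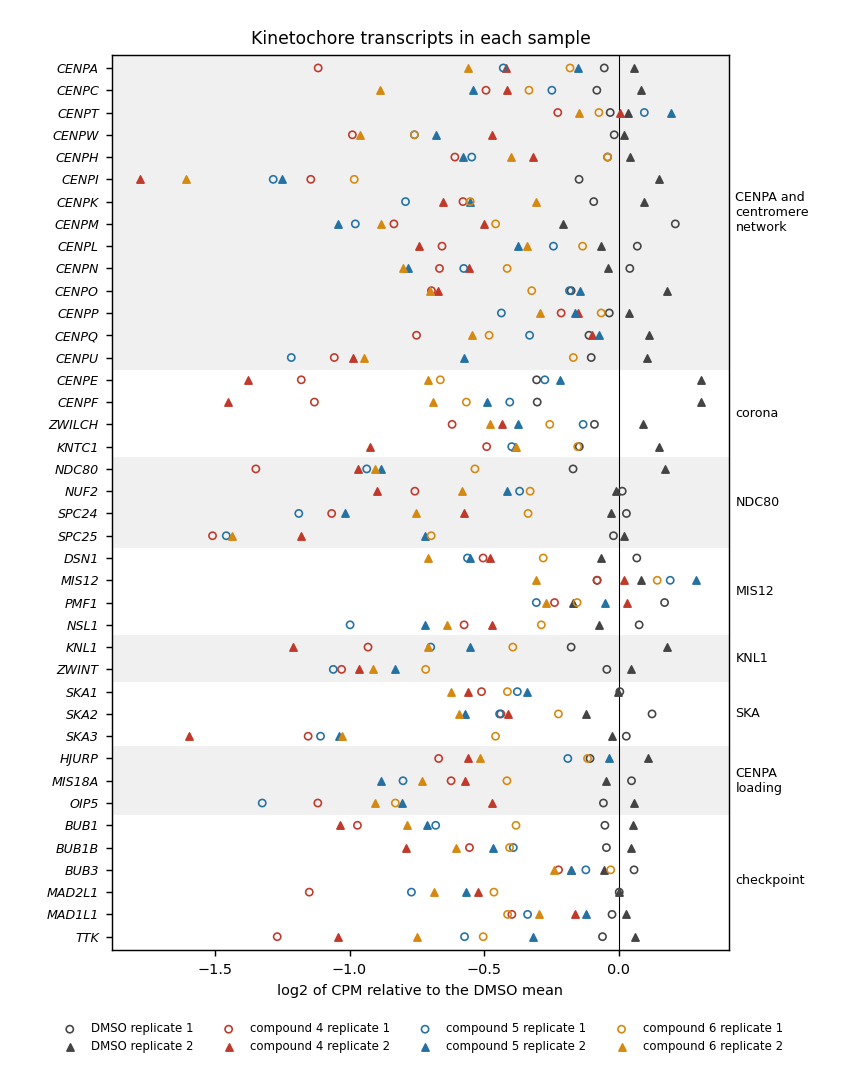
Level of each transcript in each sample, as the log2 of CPM relative to the DMSO mean (x axis), with genes in rows by sub-complex, open circles for replicate 1 and filled triangles for replicate 2. Treated points lie to the left of the DMSO points in most rows, with MIS12, CENPT and PMF1 among the rows where they mix.

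The CENPA nucleosome and the constitutive centromere network held 14 members, of which 8 were called lower with compound 4, 7 with compound 5 and 3 with compound 6. CENPI, a subunit of the CENPH, CENPI and CENPK group that helps to place new CENPA, stood at 14.5 and 17.8 CPM in the DMSO samples. Treated cells held 7.27 and 4.68 (compound 4), 6.6 and 6.75 (compound 5) and 8.13 and 5.27 CPM (compound 6). Every treated sample was below both DMSO samples. The gene lies on chromosome X, from 101098218 to 101163681 on the plus strand (GENCODE 29, GRCh38). CENPI changed by -1.44 with compound 4 (SE 0.24, edgeR adjusted p = 0.00453), by -1.27 with compound 5 (SE 0.24, edgeR adjusted p = 0.00376) and by -1.28 with compound 6 (SE 0.25, edgeR adjusted p = 0.0183).

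CENPA itself, the histone that marks the centromere, gave 16.6 and 17.9 CPM in DMSO. Its values with compounds 4, 5 and 6 were 7.95 and 12.9, 12.8 and 15.5, and 15.2 and 11.7 CPM. All treated samples were lower than DMSO, yet the treated replicates were far apart and no compound passed the test. Of the 11 other settings apart from leaving out a library, 5 called CENPA lower with compound 4, as did the fit without compound 4 replicate 2. The log2 fold changes were -0.72 with compound 4 (SE 0.22, edgeR adjusted p = 0.0597), -0.28 with compound 5 (SE 0.22, edgeR adjusted p = 0.354) and -0.37 with compound 6 (SE 0.22, edgeR adjusted p = 0.386). In GENCODE 29, CENPA overlaps SLC35F6 on the same strand, and 6.0% of its 31-base words occur in other genes.

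CENPO, of the peripheral CENPO, CENPP, CENPQ and CENPU group, was at 47.7 and 61 CPM in DMSO and at 33.3 and 33.9, 47.5 and 48.8, and 43.1 and 33.2 CPM under the 3 compounds in turn. One compound 5 sample lay above the lower DMSO sample, whereas those of the other compounds did not reach it. CENPO was called lower with compound 4, at -0.69 (SE 0.15, edgeR adjusted p = 0.0144), and was at -0.18 with compound 5 (SE 0.15) and -0.52 with compound 6 (SE 0.15), neither of which passed.

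Among the other inner members, CENPW, a histone-fold partner of CENPT, and CENPN, which binds the CENPA nucleosome, were called lower with each of the 3 compounds. Their log2 fold changes ran from -0.86 to -0.70 for CENPW and from -0.67 to -0.60 for CENPN. CENPK, CENPM and CENPU were called with compounds 4 and 5, at -0.62 and -0.67, -0.66 and -1.02, and -1.03 and -0.86, and were at -0.43, -0.67 and -0.53 with compound 6. CENPL was called only in the comparison of compound 4 with DMSO (-0.70), and was at -0.31 and -0.24 with compounds 5 and 6. CENPH was called only in that of compound 5 (-0.56), and was at -0.46 and -0.22 with compounds 4 and 6. Between compounds 5 and 4 neither gene was called, with differences of 0.39 for CENPL and -0.10 for CENPH. CENPC, the main link between CENPA and the outer layer, CENPT, which recruits NDC80, CENPP and CENPQ were called with no compound. CENPC was at -0.46, -0.40 and -0.60 with compounds 4, 5 and 6, and 11.6% of its 31-base words occur in other genes, most of them in a pseudogene.

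The corona, the fibrous outermost layer that forms on unattached kinetochores, was represented by CENPE, CENPF, ZWILCH and KNTC1. All 4 were called lower with compound 4, none with compound 5 and 1 with compound 6. At an unadjusted p under 0.05, 2 of the 4 differed from DMSO with compound 5, and DESeq2 called CENPF. KNTC1 and CENPF were called there with no filter and after the length and GC correction. CENPE, a kinesin motor that carries chromosomes to the spindle equator, stood at 32.8 and 50.1 CPM in DMSO, far apart. Compound 4 gave 17.9 and 15.6 CPM and compound 6 gave 25.6 and 24.8 CPM, whereas the 33.5 and 34.8 CPM of compound 5 lay above DMSO replicate 1. The changes were -1.31 with compound 4 (SE 0.18, edgeR adjusted p = 0.00184), -0.28 with compound 5 (SE 0.18, edgeR adjusted p = 0.248) and -0.72 with compound 6 (SE 0.18, edgeR adjusted p = 0.0496).

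CENPF, a large coiled-coil protein that accumulates in G2, gave 132 and 201 CPM in DMSO. With compounds 4, 5 and 6 it gave 74.4 and 59.5, 123 and 116, and 110 and 101 CPM, all below both DMSO samples. The log2 fold changes were -1.31 (SE 0.18, edgeR adjusted p = 0.00172), -0.48 (SE 0.18, edgeR adjusted p = 0.0668) and -0.66 (SE 0.18, edgeR adjusted p = 0.0649). The genes of CENPE (chromosome 4, 103105806 to 103198409, minus strand) and CENPF (chromosome 1, 214603195 to 214664588, plus strand) encode the largest transcripts of the corona members, at 8612 and 10307 bases. ZWILCH and KNTC1 belong to the RZZ complex, which brings dynein and the MAD proteins to the kinetochore. They were at -0.52 and -0.70 with compound 4, both called, between -0.40 and -0.25 with compound 5, and at -0.37 and -0.27 with compound 6.

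The NDC80 complex, a rod of NDC80 and NUF2 joined to SPC24 and SPC25, is the main microtubule coupler of the kinetochore. All 4 of its subunits were called lower with compound 4, 3 with compound 5 and 1 with compound 6. NDC80 stood at 23.3 and 29.5 CPM in DMSO and at 10.3 and 13.4, 13.7 and 14.2, and 18.1 and 14 CPM with compounds 4, 5 and 6. No treated sample reached a DMSO sample. The changes were -1.15 (SE 0.18, edgeR adjusted p = 0.00333), -0.93 (SE 0.18, edgeR adjusted p = 0.00438) and -0.73 (SE 0.18, edgeR adjusted p = 0.0496).

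SPC25 was at 21.1 and 21.7 CPM in DMSO, and at 7.52 and 9.44, 7.79 and 13, and 13.2 and 7.91 CPM with compounds 4, 5 and 6. Its DMSO samples were close together, and its replicates with compounds 5 and 6 were not. SPC25 fell by 1.33 with compound 4 (SE 0.26, edgeR adjusted p = 0.00933) and by 1.03 with compound 5 (SE 0.26, edgeR adjusted p = 0.0137) on the log2 scale. With compound 6 the value was -1.03 (SE 0.26, edgeR adjusted p = 0.051). SPC24 gave 23.7 and 22.8 CPM in DMSO, and 11.1 and 15.6, 10.2 and 11.5, and 18.4 and 13.8 CPM with compounds 4, 5 and 6, again without overlap. It was at -0.79 (SE 0.19, edgeR adjusted p = 0.0202), -1.10 (SE 0.19, edgeR adjusted p = 0.00237) and -0.54 (SE 0.19, edgeR adjusted p = 0.132). The words that SPC25 and SPC24 share with other genes amount to 11.6% and 10.6%. NUF2 was called with compound 4 (-0.83) and was at -0.39 and -0.46 with compounds 5 and 6.

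The MIS12 complex connects the inner layer with KNL1 and NDC80, and its 4 subunits were divided. DSN1 and NSL1 were called lower with compounds 4 and 5, while MIS12 and PMF1 were called with no compound. No subunit was called with compound 6, where 2 had an unadjusted p under 0.05. DESeq2 called none there, whereas DSN1 was called after the length and GC correction (edgeR adjusted p = 0.0497), with no filter, and without compound 4 replicate 1 or compound 6 replicate 1. DSN1 gave 60.3 and 55 CPM in DMSO and 40.6 and 41.3, 39 and 39.3, and 47.4 and 35.2 CPM with compounds 4, 5 and 6. All 6 treated samples lay below DMSO. DSN1 was at -0.49 (SE 0.14, edgeR adjusted p = 0.0428), -0.56 (SE 0.14, edgeR adjusted p = 0.0137) and -0.48 (SE 0.14, edgeR adjusted p = 0.0763).

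NSL1 stood at 36.4 and 32.8 CPM in DMSO and at 23.2 and 24.9, 17.3 and 21, and 28.3 and 22.2 CPM with compounds 4, 5 and 6. Its lowest values were those with compound 5. NSL1 was at -0.52 (SE 0.15, edgeR adjusted p = 0.0487), -0.85 (SE 0.16, edgeR adjusted p = 0.00307) and -0.46 (SE 0.15, edgeR adjusted p = 0.119). MIS12 gave -0.04, 0.23 and -0.08, and PMF1 gave -0.10, -0.18 and -0.22. PMF1 shares 25.4% of its 31-base words with other genes, mostly with the readthrough gene PMF1-BGLAP, so its counts are uncertain.

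KNL1, the scaffold on which the checkpoint proteins assemble, and ZWINT, its partner, were both called lower with compounds 4 and 5, and ZWINT also with compound 6. KNL1 was at 36.6 and 46.8 CPM in DMSO and at 21.7 and 17.9, 25.5 and 28.2, and 31.5 and 25.3 CPM with compounds 4, 5 and 6. The treated samples were all lower than DMSO. KNL1 was at -1.08 (SE 0.17, edgeR adjusted p = 0.0029), -0.64 (SE 0.16, edgeR adjusted p = 0.0159) and -0.56 (SE 0.16, edgeR adjusted p = 0.0802). ZWINT gave 46.7 and 49.7 CPM in DMSO and 23.6 and 24.7, 23.1 and 27.1, and 29.3 and 25.6 CPM with compounds 4, 5 and 6. Here DMSO and treated samples were far apart, and replicates close together. Its gene spans 56357228 to 56361275 on the minus strand of chromosome 10. ZWINT changed by -1.0 (SE 0.13, edgeR adjusted p = 0.00139), -0.94 (SE 0.13, edgeR adjusted p = 0.000675) and -0.81 (SE 0.13, edgeR adjusted p = 0.0094). It had the lowest adjusted p of the 40 members with each compound.

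The SKA complex stabilises the hold of NDC80 on moving microtubule ends. Of its 3 subunits, 2 were called lower with compound 4 and 2 with compound 5. None was called with compound 6, although all 3 had an unadjusted p under 0.05. DESeq2 called none either, whereas SKA1 was called after the length and GC correction (edgeR adjusted p = 0.0374) and SKA3 with no filter (edgeR adjusted p = 0.00517). SKA3 stood at 16.1 and 15.5 CPM in DMSO and at 7.1 and 5.23, 7.33 and 7.69, and 11.5 and 7.74 CPM with compounds 4, 5 and 6. Each treated sample was below the DMSO pair, and compound 6 replicate 1 was the highest of them. SKA3 was at -1.36 (SE 0.21, edgeR adjusted p = 0.00299), -1.07 (SE 0.21, edgeR adjusted p = 0.00426) and -0.73 (SE 0.21, edgeR adjusted p = 0.0715). SKA1 was called with compound 4 (-0.54) and SKA2 with compound 5 (-0.51). The remaining values of these 2 genes ran from -0.52 to -0.36, and none was called. SKA1 and SKA2 share 10.6% and 9.8% of their 31-base words with other genes.

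Of the factors that deposit CENPA after mitosis, all 3 were called lower with compound 4 and 2 with compound 5. With compound 6 none was called, although 2 had an unadjusted p under 0.05, and DESeq2 called OIP5. With the length and GC correction or with no filter, OIP5 and MIS18A were both called. HJURP, the chaperone that carries CENPA, gave 46.8 and 54.3 CPM in DMSO and 31.7 and 34.2, 44.2 and 49.2, and 46.5 and 35.3 CPM with compounds 4, 5 and 6. The compound 4 samples were separate from DMSO, and one compound 5 sample lay between the DMSO samples. HJURP was at -0.62 (SE 0.15, edgeR adjusted p = 0.0213), -0.11 (SE 0.14, edgeR adjusted p = 0.584) and -0.31 (SE 0.15, edgeR adjusted p = 0.27).

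OIP5 and MIS18A are subunits of the MIS18 complex, which licenses the centromere for new CENPA. OIP5 gave 20.5 and 22.2 CPM in DMSO and 9.83 and 15.4, 8.52 and 12.2, and 12 and 11.4 CPM with compounds 4, 5 and 6. No treated sample reached DMSO. OIP5 was at -0.75 (SE 0.22, edgeR adjusted p = 0.0463), -1.03 (SE 0.22, edgeR adjusted p = 0.00657) and -0.87 (SE 0.22, edgeR adjusted p = 0.0519). MIS18A was called with compounds 4 (-0.60) and 5 (-0.84) and was at -0.57 with compound 6.

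In the spindle checkpoint, 4 of 6 members were called lower with compound 4, the same 4 with compound 5 and 3 of them with compound 6. The TTK call held in 4 of the 11 other settings apart from leaving out a library with compound 5, and in 8 of them with compound 6. BUB1, the kinase that marks the centromere for shugoshin, stood at 94.9 and 102 CPM in DMSO and at 50.2 and 48, 61.4 and 60, and 75.5 and 57.1 CPM with compounds 4, 5 and 6. There was no overlap with DMSO. BUB1 changed by -1.0 (SE 0.13, edgeR adjusted p = 0.00153), -0.70 (SE 0.13, edgeR adjusted p = 0.00362) and -0.57 (SE 0.13, edgeR adjusted p = 0.0373). TTK, the kinase also called MPS1 that starts checkpoint signalling, gave 26.1 and 28.4 CPM in DMSO and 11.3 and 13.2, 18.3 and 21.8, and 19.2 and 16.2 CPM with compounds 4, 5 and 6. Treated samples were again all lower, those of compound 4 the most. TTK changed by -1.15 (SE 0.15, edgeR adjusted p = 0.00159), -0.44 (SE 0.15, edgeR adjusted p = 0.0491) and -0.63 (SE 0.15, edgeR adjusted p = 0.0447).

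BUB1B, which encodes the checkpoint protein BUBR1, was called with every compound, at -0.67, -0.43 and -0.51, and shares 9.1% of its 31-base words, mainly with the readthrough gene BUB1B-PAK6. MAD2L1, the inhibitor of CDC20, which activates the anaphase-promoting complex, was called with compounds 4 (-0.80) and 5 (-0.66) and was at -0.58 with compound 6. BUB3 and MAD1L1 were called with no compound, although the length and GC correction put MAD1L1 at -0.42 and -0.41 with compounds 4 and 6, both called. BUB3, a WD-repeat adaptor of BUB1 and BUBR1, was between -0.20 and -0.13, and MAD1L1, the platform for MAD2, between -0.35 and -0.22.

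The compounds were compared directly over all tested genes in 3 pairs. Compound 5 differed from compound 4 in 5 members, all of them higher with compound 5, where 6.91% of all genes were called higher. CENPE was higher by 1.03 on the log2 scale (95% interval 0.62 to 1.44, edgeR adjusted p = 0.00954) and CENPF by 0.84 (0.44 to 1.24, edgeR adjusted p = 0.0174). TTK was higher by 0.71 (0.37 to 1.06, edgeR adjusted p = 0.0182). CENPO and HJURP were higher by 0.52 (0.18 to 0.85, edgeR adjusted p = 0.0466) and 0.50 (0.18 to 0.83, edgeR adjusted p = 0.046). With the replicate block these last 2 lost the call, at edgeR adjusted p-values of 0.0613 and 0.0603. In the CPM given above, both compound 5 samples were higher than both compound 4 samples for each of the 5 genes. The genes were picked by the test on these same counts, so this order adds no support to the calls.

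**Figure D4:**
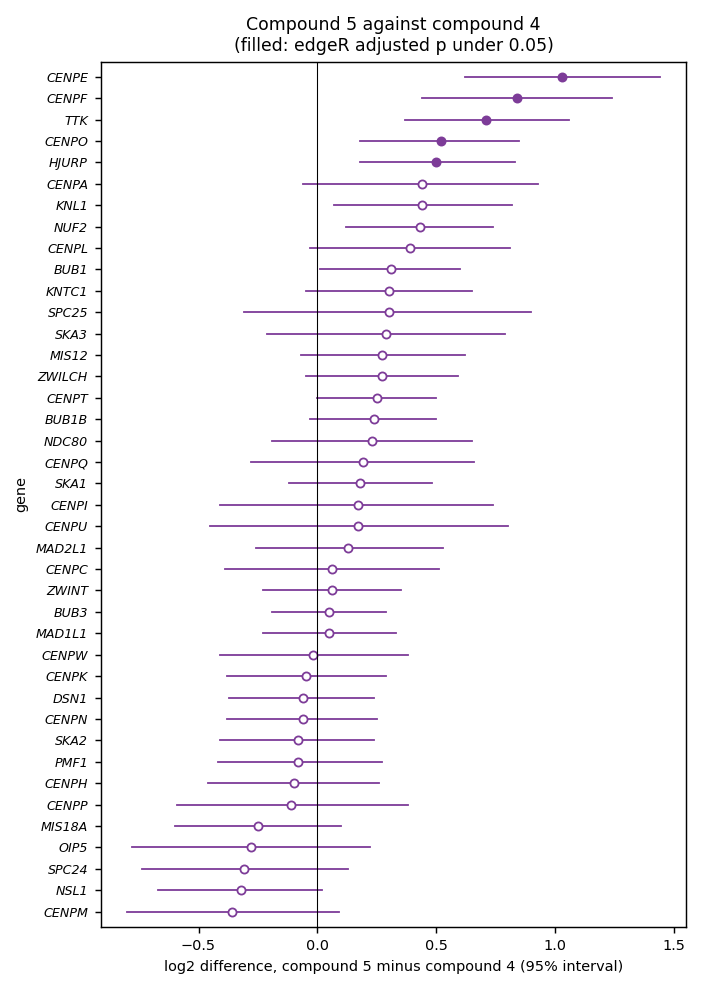
Difference of each transcript between compound 5 and compound 4 on the log2 scale (x axis) with its 95% interval, genes ordered by size. The 5 filled points, CENPE, CENPF, TTK, CENPO and HJURP, passed an edgeR adjusted p of 0.05, and the lowest point is CENPM at -0.36.

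No member was called in this comparison when either compound 5 replicate was left out. Without compound 4 replicate 2 only CENPE and TTK were called, and without compound 4 replicate 1 CENPE, CENPF and TTK kept the call and KNTC1 gained one. CENPE and CENPF have longest transcripts over 6000 bases, and transcript length moved with the libraries. Over all genes with transcripts of that length, the medians were 0.147 for compound 5 minus DMSO and -0.063 for compound 4 minus DMSO, and over genes under 1.5 kb they were -0.19 and 0.056. Taken directly, compound 5 minus compound 4 had medians of 0.198 and -0.254 in these length classes. With a correction for transcript length and GC content, all 5 calls were kept, at 0.81 for CENPE, 0.61 for CENPF, 0.68 for TTK, 0.56 for CENPO and 0.58 for HJURP, and CENPT and NUF2 were called in addition.

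For most members the compounds 4 and 5, bisphenols with a methylene and an ethylidene bridge, were not separated. At an unadjusted p under 0.05, 9 members differed, against 32% of all genes. ZWINT differed by 0.06 (95% interval -0.23 to 0.35), CENPI by 0.17 (-0.41 to 0.74) and NDC80 by 0.23 (-0.19 to 0.65). The intervals of SPC24, from -0.74 to 0.13, and of CENPM, from -0.80 to 0.09, reached further to the other side. Intervals of this width leave room for differences in either direction.

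Compound 4 against compound 6, the pair with tert-butyl and cyclohexyl groups on a methylene-bridged bisphenol, gave no called member, where 0.0448% of all genes were called in either direction. At an unadjusted p under 0.05, 10 members differed, against 9.81% of all genes, all 10 lower with compound 4, and DESeq2 called 1, CENPF. With no filter, edgeR called 2, CENPE and CENPF. CENPF was lower with compound 4 by 0.66 on the log2 scale, with a difference of -0.66 (95% interval -1.06 to -0.26, edgeR adjusted p = 0.314). SKA3 and CENPE differed by -0.63 (-1.12 to -0.14) and -0.59 (-1.01 to -0.18). Compound 5 against compound 6 also gave no called member, where 9.91% of all genes were called in either direction, and 5 had an unadjusted p under 0.05, against 27.5% of all genes. DESeq2 called none, whereas edgeR called CENPE and SPC24 with no filter, CENPE with only the groups compared, CENPT after the length and GC correction, and SPC24 without either compound 4 replicate. The most negative difference was that of SPC24, at -0.56 (95% interval -1.0 to -0.13, edgeR adjusted p = 0.0943), and the most positive that of CENPE, at 0.44 (0.04 to 0.84, edgeR adjusted p = 0.148).

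Of 21 further genes of the kinetochore, inner centromere and chromosomal passenger complex, 14 were called lower with compound 4, 15 with compound 5 and 8 with compound 6, and none higher, beside the 5.42%, 14.2% and 1.6% of all genes called lower. These counts also rested on single libraries, and in each fit named here the calls among all tested genes fell as well. The 14 fell to 8 without DMSO replicate 2. The 15 fell to 2 without compound 5 replicate 1, to 5 without DMSO replicate 2, and to 9 without DMSO replicate 1 or compound 5 replicate 2. The 8 fell to 0 without DMSO replicate 1, DMSO replicate 2 or compound 6 replicate 2. The medians were -0.81, -0.55 and -0.52. AURKB, the kinase that releases faulty attachments, changed by -1.25, -0.73 and -0.86, and its partners INCENP, BIRC5 and CDCA8 were likewise called with all 3 compounds. SGO2, a shugoshin that protects cohesion, was at -0.88, -0.96 and -0.72, PLK1 at -1.01, -0.60 and -0.73, and SPAG5 at -1.15, -0.46 and -0.78, each called with all 3 compounds. CENPB, CENPX, MAD2L1BP, TRIP13 and BOD1 were called in none of these comparisons. Between compounds 5 and 4, ZW10, INCENP and SPAG5 were higher and CENPX lower with compound 5, where 6.91% of all genes were called higher and 7.04% lower.

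Promoters of G2 and mitosis genes often carry a cell cycle homology region (CHR), a short element near the start that the DREAM and MuvB complexes bind, with CCAAT boxes upstream. RefSeq windows on GRCh38.p14 from 250 bases before to 50 bases after a start were at hand for 32 of the 40 members, 1 start for each gene. TTTGAA or TTCGAA occurred, on either strand, within 100 bases before to 50 bases after the start in 16 of the 32 (50%), against 7.4% of 27305 windows. Over the whole 300 bases these shares were 53.1% and 16.6%. CCAAT on either strand occurred in 59.4% of the members' 300-base windows and in 35.7% of all, and the E2F-type words TTCCCGC or TTGGCGC in 28.1% and 9.3%, or in 18.8% and 5.0% from 100 bases before the start. The 5 windows shown are from genes described above that hold the match, at different distances from the start, which is base 101 of each. Capitals mark TTTGAA or TTCGAA, and also any CCAAT, on either strand, and each run reads along the gene.
BUB1 (chr2:110678014-110678163, minus strand): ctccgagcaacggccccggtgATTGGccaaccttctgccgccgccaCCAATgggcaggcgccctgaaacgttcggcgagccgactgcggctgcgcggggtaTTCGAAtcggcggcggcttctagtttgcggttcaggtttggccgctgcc
NDC80 (chr18:2571457-2571606, plus strand): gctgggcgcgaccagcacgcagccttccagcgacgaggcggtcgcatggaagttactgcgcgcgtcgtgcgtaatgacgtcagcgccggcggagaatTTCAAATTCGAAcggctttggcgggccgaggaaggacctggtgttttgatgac
ZWINT (chr10:56361210-56361359, minus strand): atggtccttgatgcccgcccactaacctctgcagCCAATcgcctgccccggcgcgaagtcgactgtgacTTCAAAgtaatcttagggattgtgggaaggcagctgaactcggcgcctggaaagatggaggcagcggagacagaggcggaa
SKA3 (chr13:21176503-21176652, minus strand): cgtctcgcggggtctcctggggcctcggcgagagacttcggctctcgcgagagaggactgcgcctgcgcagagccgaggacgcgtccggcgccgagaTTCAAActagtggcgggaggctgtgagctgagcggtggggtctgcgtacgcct
CENPA (chr2:26785956-26786105, plus strand): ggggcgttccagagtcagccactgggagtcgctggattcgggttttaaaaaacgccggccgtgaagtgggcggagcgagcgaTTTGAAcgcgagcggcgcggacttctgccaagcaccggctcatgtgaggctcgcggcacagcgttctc

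The match lies at or within 3 bases of the start in BUB1, NDC80 and SKA3, at -31 in ZWINT and at -18 in CENPA. NDC80 holds 2 adjoining matches, TTTGAA on the opposite strand and then TTCGAA, which reads the same on both strands. BUB1, NDC80, ZWINT and SKA3 were called lower with compounds 4 and 5, whereas CENPA was not.

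The 16 members with a match had median log2 fold changes of -0.78, -0.67 and -0.60 for compounds 4, 5 and 6. The 16 without one had medians of -0.51, -0.29 and -0.42. With a match, 14, 10 and 6 were called lower, and without one 9, 7 and 2. Among the other tested genes whose symbol matched a window, 438 held the match, and 21.5%, 27.4% and 8.45% of them were called lower. Of the 9545 without it, 4.83%, 14.5% and 1.34% were called lower. No difference between these classes was tested. The ranges overlapped: with compound 4 they ran from -1.36 to -0.46 with a match and from -1.44 to -0.04 without. CENPI, the member with the most negative change, had no match, but the table's start for it lies well inside the gene as GENCODE 29 draws it. The same holds for CENPA, NUF2 and SPC25, which have a match: in these 4 members the start lies over 1000 bases inside the gene. These values are a description of the windows, and factor binding was not measured.

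**Figure D5:**
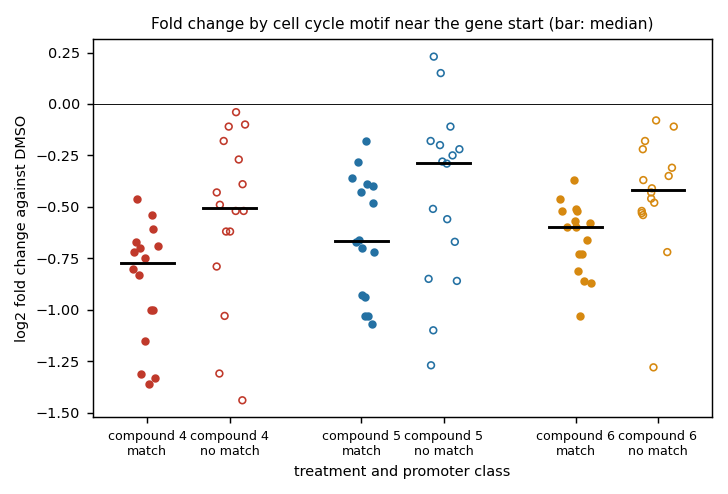
Log2 fold change against DMSO (y axis) of the 32 members with a promoter window, for each compound, divided by whether TTTGAA or TTCGAA occurs near the start, with a point for each gene and a bar at the median. The medians with a match are -0.78, -0.67 and -0.60, and those without are -0.51, -0.29 and -0.42.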

How the data were processed

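RNA of 8 samples of CYP3A4-overexpressing HepG2 cells was sequenced from directional libraries. The authors estimated transcript abundance with Salmon 1.5.0 on GENCODE transcripts (GRCh38) and summarized it to genes, depositing the estimated counts in whole numbers with no scaling to library size. The deposited values are thus expected counts. The labels number the samples as day 1 and day 2, and the methods give 1 exposure time, so the day served as replicate number and as a block. The labels mark replicate 1 of compounds 4 and 5 as merged, each from 2 numbered parts, and do not say what the parts are. Deviations of same-numbered samples from their group means correlated between -0.083 and 0.16. The labels do not say that replicates were separate cultures, so p-values measure the spread between these samples. Replicates differed by more than counting noise (chi-square per degree of freedom 5.51 to 17.2).

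The tests used edgeR 4.0.16 in R 4.3.3 (TMM scaling, filterByExpr, quasi-likelihood test, all 8 samples, group as the only term), and CPM are TMM-scaled. DESeq2 1.42.0, RLE, upper-quartile and library-size scaling, no filter, at least 10 counts in every sample, the block, only the groups compared, an adjusted p under 0.01 and leaving out each replicate were alternatives. A loess correction for transcript length and GC content, alone and with the block, was chosen after seeing the data. Fits that left out a replicate kept the 13404 genes, and the lone sample was assumed to vary like the other groups. On simulated data for compound 4 versus DMSO (13404 genes, a log2 change of 1), 79.8% of changed genes were called, and 4.77% of calls were false. Coordinates and shared 31-base words came from GENCODE 29, promoters from RefSeq. The floor of 3 counts covers counting error only.

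The members, sub-complexes, lists and tests were chosen with earlier results of these data known. Genes with values in every sample were the largest change of each sub-complex for each compound, members called higher against DMSO (none) or between compounds, and CENPA, NDC80 and BUB1. Whether counting used strand is not given in the sources used here, so members that overlap antisense genes are uncertain.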

Additional observations from a re-analysis of the deposited data

How the results depend on the processing

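All medians of the members against DMSO stayed negative under every alternative run. At an adjusted p under 0.01, the called members were 12, 12 and 1 with compounds 4, 5 and 6 and 1 for compound 5 versus 4, the called genes 591, 1809, 92, 279, 282 (compound 5 versus 6) and 1 (compound 4 versus 6), and the other kinetochore genes 7 with compound 5 and 0 with compound 6. The compound 5 median was -0.58 with upper-quartile scaling and -0.60 with library size only, where the median of all genes was -0.12 and -0.14, and the higher share of all calls for compound 5 fell from 49.3% to 36.6% and 33.3%. Both scalings left 3 members for compound 5 versus 4. There the higher share of all calls was 49.5%, and 33.0% and 31.3% with these scalings, and DESeq2 gave 63.8%. For compound 5 versus 6 the share was 48.0%, 28.7%, 28.4% and 60.6% in the same order. Without a filter, compound 6 had 20 members and 1441 genes, compound 5 versus 4 had 2812 genes, compound 5 versus 6 had 2 members and 2117 genes, and compound 4 versus 6 had 2 and 294. The length and GC correction gave 19 members and 1125 genes for compound 6, 1 and 2217 for compound 5 versus 6, and 11 genes for compound 4 versus 6. With the replicate block added, it gave 20 and 1156, 1 and 2328, and 13 genes, and 8 members for compound 5 versus 4, while the replicate block alone gave 26, 21 and 7 members against DMSO and 3 for compound 5 versus 4. Its other changed calls are given above. With only the groups compared, compound 5 versus 4 had 897 genes, compound 5 versus 6 had 1 member and compound 4 versus 6 had 2 genes. DESeq2 called 1 member and 72 genes for compound 4 versus 6, where the higher share of calls was 63.9% against 50%.

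Leaving out 1 replicate at a time gave, for compound 4, 8 to 28 members, 335 to 1703 genes, 8 to 15 other kinetochore genes and medians of -0.72 to -0.57. For compound 5 it gave 10 to 25, 1680 to 4519, 2 to 15 and -0.55 to -0.40, and for compound 6, 0 to 19, 1 to 1096, 0 to 11 and -0.67 to -0.39. For compound 5 versus 4 it gave 0 to 5 members, 111 to 2709 genes and medians of 0.10 to 0.22. For compound 5 versus 6 it gave 0 to 1, 143 to 1875 and -0.17 to 0.10, and for compound 4 versus 6, 0 members, 0 to 117 genes and -0.27 to -0.03. Without DMSO replicate 2, CENPE, CENPO and HJURP turned to 0.08, 0.04 and 0.02 with compound 5, the upper ends of ranges that began at -0.55, -0.34 and -0.22. The cause of these shifts was not tested.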

Other observations

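Of the 4 G2/M and proliferation reference genes, MKI67, TOP2A, CCNB1 and CDK1, all were called lower with compound 4, and the last 3 also with compounds 5 and 6, beside the 5.42%, 14.2% and 1.6% of all tested genes called lower. TOP2A, the topoisomerase that untangles sister chromatids, changed by -1.47, -0.72 and -0.79 with compounds 4, 5 and 6. MKI67 was at -1.28 (SE 0.28) with compound 4, and at -0.37 and -0.58 with compounds 5 and 6, where it was not called. Its replicates were far apart, at 185 and 271 CPM in DMSO and at 127 and 61.9 CPM with compound 4. Of the G1/S genes, MCM2, a subunit of the replicative helicase, was called lower with each compound, at -0.69, -0.71 and -0.60. PCNA was at -0.67, -1.09 and -0.68, called with compounds 4 and 5. CDC6 was called with compound 4 alone among the comparisons with DMSO (-0.57, edgeR adjusted p = 0.0402), and CCNE2 with none. With compound 5 CDC6 was at -0.33, and with compound 6 at -0.62 (edgeR adjusted p = 0.0548). Between compounds 4 and 6 it differed by 0.05 and was not called.

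Transcript length moved with single libraries. Genes with transcripts over 6 kb were higher in DMSO replicate 2 than in replicate 1 by a median of 0.126 on the log2 scale, and lower in compound 4 replicate 2 than in replicate 1, by a median of -0.276. The 7 members with such transcripts, among them CENPE, CENPF, KNL1 and KNTC1, had a median of -0.70 with compound 4 and of -0.60 after correction for length and GC content. With compound 5 these medians were -0.40 and -0.46, and with compound 6 -0.56 and -0.62.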
